A study of Mus musculus with 6 samples.

Results

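Plasminogen activators, their receptor and inhibitor, the membrane serine proteases and the secreted HtrA proteases were examined in the mouse oviduct through 9 genes listed by name: Plat, Plau, Plaur, Serpine2, St14, Tmprss2, Tmprss4, Htra1 and Htra3. Every probe set whose platform annotation names only 1 of these genes was taken, which gave 16 probe sets for 8 genes among 45037 probe sets for 18193 genes. Serpine2 had no probe set in the annotation used and was not analysed here. Tmprss2 had 4 probe sets, Htra3 had 3, Plat, Plau and Htra1 had 2 each, and Plaur, St14 and Tmprss4 had 1 each.

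The arrays compared 3 oviduct samples of Wt1 ko/+ females, called heterozygous here, with 3 of Wt1 +/+ females, called wild type. All animals were of the MF1 strain, an outbred stock, and the oviducts were taken at embryonic day 2.5 after mating to wild-type males. Wt1 is a transcription factor of the zinc finger class, and the design asks which transcripts of the oviduct differ when 1 of its alleles is knocked out, at a stage when embryos travel through the tube. The labels give no age, do not describe the knockout allele, and do not say whether a sample was 1 animal or a pool, so p-values cover only the spread between arrays, which may be partly technical.

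Plasmin is a broad protease of fibrin and matrix that is made when an activator cuts its precursor, plasminogen. Tissue-type activator works mainly on fibrin, urokinase works at the cell surface while bound to its receptor, and serpins shut both activators off. Matriptase and the TMPRSS enzymes carry the same kind of serine protease domain at the outer face of epithelial cells, where they activate other proteases, growth factors and sodium channels. The HtrA proteases are a separate family with a PDZ domain, secreted in the case of Htra1 and Htra3. Components of the plasminogen system have been described in the oviduct of the rat, the pig and the cow.

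Levels below are log2 intensities after quantile normalization, 1 array per sample, and differences are heterozygous minus wild type. No array reports whether a probe set lay above background, so the median level of all probe sets, 7.31, serves as the mark of a dim one. Of the 16 probe sets 12 lay above it on average, and the other 4 were both Plau probe sets, 1 of Tmprss2 and 1 of Htra3.

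None of the 16 probe sets passed the threshold, an adjusted p under 0.05 with limma over all probe sets, against 0.00666% of all probe sets. Their adjusted p lay between 0.915 and 0.997. At an unadjusted limma p under 0.05 there was 1, the Plaur probe set, against 5.18% of all probe sets. The genotypes did not overlap at 3 of the 16, which is 18.8%, against 10.5% of all probe sets. Higher in heterozygous oviducts were Plaur and 1 Tmprss2 probe set, 2 of 16 against 4.67% of all probe sets, and lower was 1 Plat probe set, against 5.87%. The difference was above 0 at 4 probe sets and below 0 at 12, with a median of -0.11, against -0.01 over all probe sets, of which 48.3% were above 0. Probe sets of 1 gene are not independent of each other. At the brightest probe set of each of the 8 genes, 2 differences were above 0 and 6 below, against 45% of all genes above 0. Their median was -0.07, against -0.03 over all genes. The genotypes did not overlap at 1 higher gene, Plaur, and 1 lower gene, Plat, against 11.8% of all genes. With the Actb control ratio described next as a covariate, 9 of the 16 differences were above 0 and 7 below.

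RNA quality differed between the arrays. The ratio of 3' to 5' signal of the Actb control was 2.49, 1.67 and 1.71 in heterozygous replicates 1, 2 and 3, and 1.74, 2.40 and 5.90 in wild-type replicates 1, 2 and 3. Heterozygous replicate 1 and wild-type replicates 2 and 3 thus formed the 3 arrays of higher ratio. Wt1 itself was 11.12, 11.27 and 11.79 in heterozygous oviducts, against 12.17, 12.06 and 11.67 in wild-type oviducts. Heterozygous replicate 3 lay above wild-type replicate 3, and the Wt1 difference of -0.57 (standard error 0.24) did not pass (limma p = 0.0591, adjusted p = 0.933, exact permutation p = 0.2). Its probe set could not be placed against the knocked-out stretch of the gene from the labels, so its level is a limited check. As a check of the tissue label, Ovgp1, the oviduct glycoprotein, was bright, averaging 14.33 in heterozygous and 14.27 in wild-type oviducts. All 7 secretory and all 7 ciliated epithelial markers lay above the median level. So did all 7 markers each of smooth muscle, stromal fibroblasts, endothelium and mesothelium, so that measure does not single out the oviduct.

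Promoter sequence is shown for Plaur and Tmprss2, the genes with a probe set higher without overlap and with an entry among the RefSeq promoters of GRCm38.p6, where 5 of the 9 genes were found (Serpine2, Htra1, Htra3, Plaur and Tmprss2). Each run holds the 250 bases before the listed start, read 5' to 3' on the gene's strand. Capitals mark GCGGGGGCG, a form of the WT1 binding motif, and TGANTCA, the AP-1 motif. Both windows lie inside the longer interval that RefSeq gives the gene, so other transcripts start elsewhere.
Plaur, chr7:24462233-24462482, plus strand: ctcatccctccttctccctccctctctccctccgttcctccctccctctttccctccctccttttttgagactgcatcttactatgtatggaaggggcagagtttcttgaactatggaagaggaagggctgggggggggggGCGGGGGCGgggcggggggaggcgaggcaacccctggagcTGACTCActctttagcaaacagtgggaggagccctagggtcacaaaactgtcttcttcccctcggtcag
Tmprss2, chr16:97611196-97611445, minus strand: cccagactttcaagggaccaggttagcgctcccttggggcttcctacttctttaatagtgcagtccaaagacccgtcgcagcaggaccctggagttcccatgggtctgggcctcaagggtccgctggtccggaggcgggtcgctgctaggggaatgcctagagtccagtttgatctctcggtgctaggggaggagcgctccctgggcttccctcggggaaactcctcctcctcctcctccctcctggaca

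The searches covered both strands of the 250 bases. In the Plaur window GCGGGGGCG began 109 bases before the start and TGANTCA began 69 bases before it. Of the RefSeq promoters 2.57% held GCGGGGGCG and 6.75% held TGANTCA. The related WT1 form GCGTGGGCG was in 0.536% of promoters and in none of the 5 matched windows. The GC box GGGCGG, which overlaps GCGGGGGCG, was found 3 times in the Plaur window and in 32.7% of promoters. Of the other matched genes Serpine2 held GCGGGGGCG, beginning 17 bases before the start, and Htra1, Htra3 and Tmprss2 held neither motif marked by capitals. A match is only a run of letters, and binding was not measured here.

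**Figure D1:**
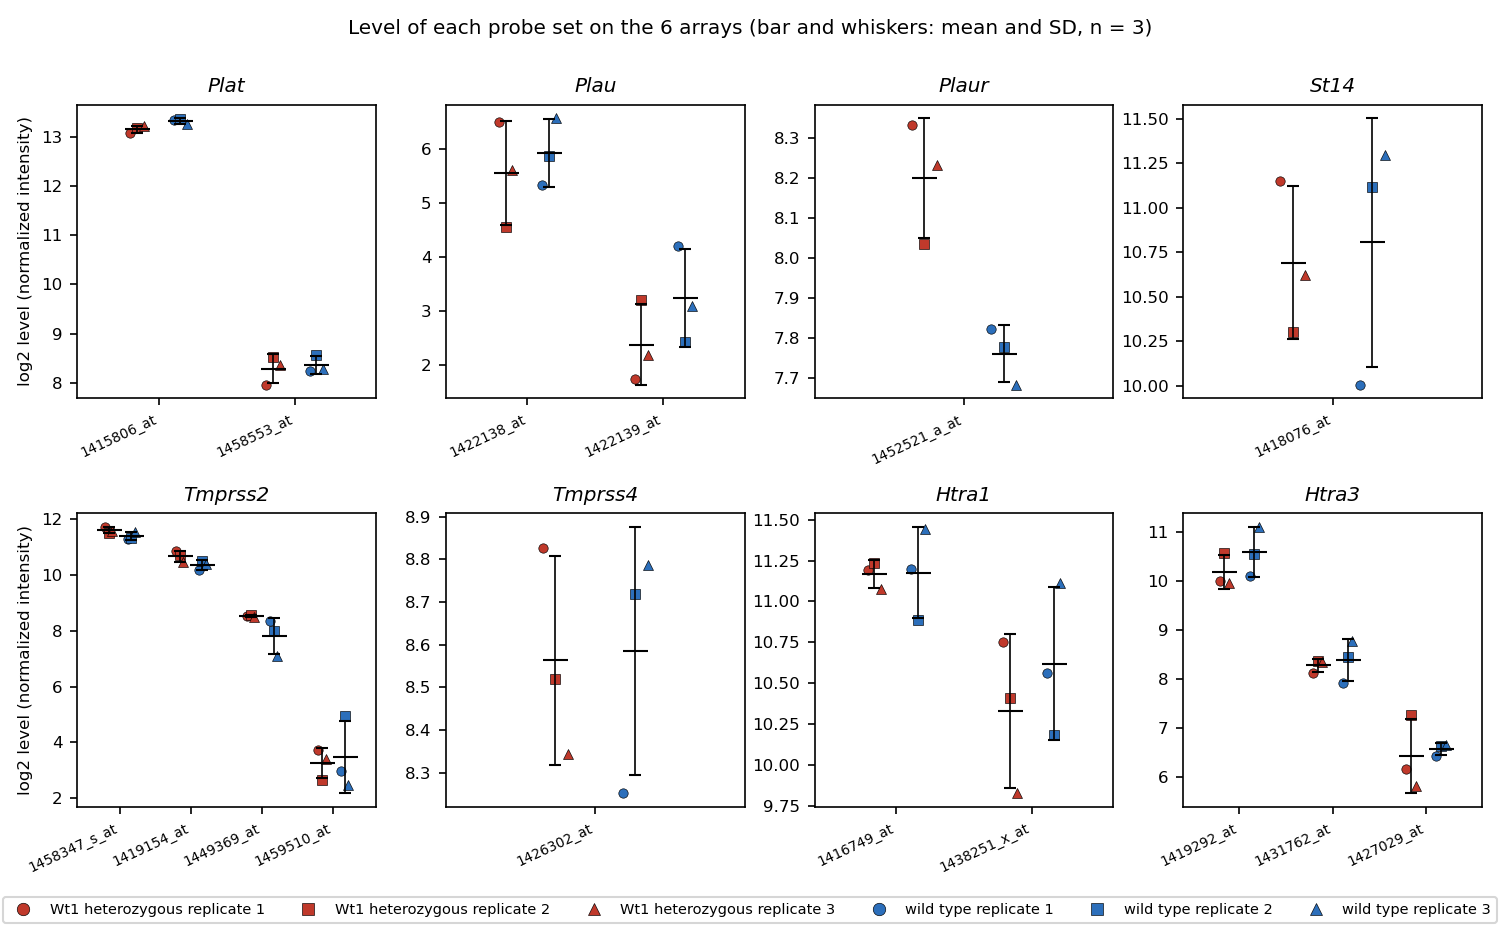
Log2 level of the 16 probe sets in each of the 6 arrays, 1 panel per gene with its own vertical axis, heterozygous arrays in red on the left and wild-type arrays in blue on the right of each probe set. Bars and whiskers are the mean and SD of 3 arrays; the genotypes are apart at Plaur, at Plat 1415806_at and at Tmprss2 1449369_at, and overlap at the other 13 probe sets.

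Plat, which encodes tissue-type plasminogen activator, was read brightly by its first probe set, 1415806_at. Its level was 13.07, 13.17 and 13.21 in heterozygous oviducts, against 13.34, 13.37 and 13.26 in wild-type oviducts. Every heterozygous array lay below every wild-type array, but heterozygous replicate 3 and wild-type replicate 3 nearly met. As deposited, the intensities were 8750, 9218 and 8904 in heterozygous replicates 1, 2 and 3, against 9571, 10793 and 10846 in wild-type replicates 1, 2 and 3. The difference was -0.17 (standard error 0.13, 95% interval -0.49 to 0.15), 1.13-fold lower, and did not pass (adjusted p = 0.933 with limma, exact permutation p = 0.1, the smallest that 3 arrays against 3 can give). It was -0.25 within the 3 arrays of higher Actb ratio and -0.15 within the 3 of lower ratio. The second Plat probe set, 1458553_at, was 7.96, 8.53 and 8.36 in heterozygous oviducts, against 8.24, 8.56 and 8.27 in wild-type oviducts. Those genotypes overlapped, with a difference of -0.08 (standard error 0.21).

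Plau, the gene of urokinase, was dim at both of its probe sets. The level of 1422138_at was 6.50, 4.56 and 5.62 in heterozygous oviducts, against 5.33, 5.87 and 6.57 in wild-type oviducts. The genotypes overlapped and the difference of -0.36 had a standard error of 0.57. At 1422139_at the level was 1.75, 3.20 and 2.19 in heterozygous oviducts, against 4.21, 2.42 and 3.10 in wild-type oviducts. This corresponds to intensities of 3.66 to 9.02 in heterozygous and 5.48 to 17.7 in wild-type arrays, against array medians of 151.6 to 167.8, and the difference of -0.86 (standard error 0.58) had an interval from -2.28 to 0.56. It ranged from -1.27 to -0.38 when 1 array was left out, and was -0.16 with array weights and -0.28 with log2 of the intensity plus 16. The Actb ratio as a covariate gave -1.18, and the split into arrays of higher and lower ratio as a block gave -1.26. With the interval of 1422138_at running from -1.76 to 1.03, neither probe set could show a Plau difference unless it was large.

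Plaur encodes the urokinase receptor, a lipid-anchored surface protein that holds urokinase at the cell edge. Its probe set, 1452521_a_at, was 8.33, 8.04 and 8.23 in heterozygous oviducts, against 7.82, 7.78 and 7.68 in wild-type oviducts. All 3 heterozygous arrays lay above all 3 wild-type arrays. The deposited intensities were 313.9, 269.4 and 310.2 in heterozygous replicates 1, 2 and 3, against 227.7, 217.2 and 199.8 in wild-type replicates 1, 2 and 3. The mean was 8.20 ± 0.15 in heterozygous and 7.76 ± 0.07 in wild-type oviducts (SD, n = 3 each), 1.36-fold higher. The difference of 0.44 (standard error 0.15) had a 95% interval from 0.08 to 0.80 before adjustment, and did not pass over all probe sets (limma p = 0.0252, adjusted p = 0.915, exact permutation p = 0.1). Its size was 0.60 within the arrays of higher Actb ratio and 0.31 within those of lower ratio, and 0.37 to 0.52 when any 1 array was left out. Of the 16 probe sets this was the only one whose interval did not include 0.

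The summed marker intensities of several cell types also did not overlap between the genotypes, although no marker passed the threshold over all genes (limma). All 7 smooth muscle markers were higher, with summed intensity of 33686 to 45708 in heterozygous arrays and 29583 to 32381 in wild-type arrays. All 7 stromal fibroblast markers were likewise higher, with sums of 35794 to 42174 in heterozygous and 30856 to 35499 in wild-type arrays. All 7 endothelial markers were higher too, at 3446 to 4131 in heterozygous and 2784 to 3165 in wild-type arrays. Of the 5 adipocyte markers measured 4 were higher, at 797.5 to 1504 in heterozygous and 433.5 to 500.2 in wild-type arrays. Of 7 ciliated cell markers 6 were lower, at 18768 to 22297 in heterozygous and 23169 to 24519 in wild-type arrays. Leukocyte sums overlapped, at 4928 to 6041 in heterozygous and 4591 to 5959 in wild-type arrays. Mesothelial sums overlapped as well, at 14343 to 14553 in heterozygous and 13968 to 16507 in wild-type arrays. So did secretory epithelial sums, at 65054 to 67800 in heterozygous and 64214 to 67526 in wild-type arrays. By the mean log2 level of a list's markers, which weights each marker equally, the smooth muscle and ciliated cell lists overlapped. The smooth muscle mean was 11.53 to 12.29 in heterozygous arrays and 11.16 to 11.55 in wild-type arrays. The ciliated cell mean was 11.07 to 11.30 in heterozygous arrays and 11.03 to 11.41 in wild-type arrays. The stromal fibroblast, endothelial and adipocyte lists did not overlap by that measure either. No marker of any list was at the floor, an intensity of 1, in all arrays, which does not show that each was detected. Only 3 of the 5 adipocyte and 4 of the 7 leukocyte markers lay above the median level of all probe sets. The part of these cell types in the Plaur and Plat differences was not tested. In whole oviducts fewer cells of a type and less RNA per cell cannot be told apart.

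Tmprss2 encodes a transmembrane serine protease of epithelia, known in the prostate for its control by androgen. Its brightest probe set was 1458347_s_at, whose suffix marks probes that may bind more than 1 transcript. The level there was 11.73, 11.52 and 11.56 in heterozygous oviducts, against 11.30, 11.34 and 11.54 in wild-type oviducts. Only wild-type replicate 3 reached into the heterozygous range, and the difference was 0.21 (standard error 0.15). At 1419154_at the level was 10.84, 10.71 and 10.45 in heterozygous oviducts, against 10.16, 10.51 and 10.39 in wild-type oviducts. Wild-type replicate 2 lay just above heterozygous replicate 3 there, and the difference was 0.31 (standard error 0.18, 95% interval -0.13 to 0.75).

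The third Tmprss2 probe set, 1449369_at, had the largest difference above 0 of the 16 probe sets. It was 8.54, 8.55 and 8.50 in heterozygous oviducts, against 8.34, 7.99 and 7.08 in wild-type oviducts. The genotypes did not overlap, the heterozygous arrays lay close together, and wild-type replicate 3, the array of highest Actb ratio, was far below the others. The difference of 0.72 (standard error 0.34, 95% interval -0.11 to 1.56) did not pass (limma p = 0.0766, adjusted p = 0.933, exact permutation p = 0.1). Without wild-type replicate 3 it was 0.36, and with the Actb ratio as a covariate 0.35. It was 1.01 within the arrays of higher ratio and 0.18 within those of lower ratio, whereas the differences of 1458347_s_at were 0.29 and 0.24 and those of 1419154_at were 0.39 and 0.42. Without wild-type replicate 3 the genotypes did not overlap at 4 of the 16 probe sets, 1458347_s_at being added, against 18.3% of all probe sets in those 5 arrays; that array was left out after its values were seen. The dim remaining probe set, 1459510_at, ranged from 2.65 to 3.71 in heterozygous and from 2.48 to 4.93 in wild-type arrays, with a difference of -0.21 (standard error 0.69).

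**Figure D2:**
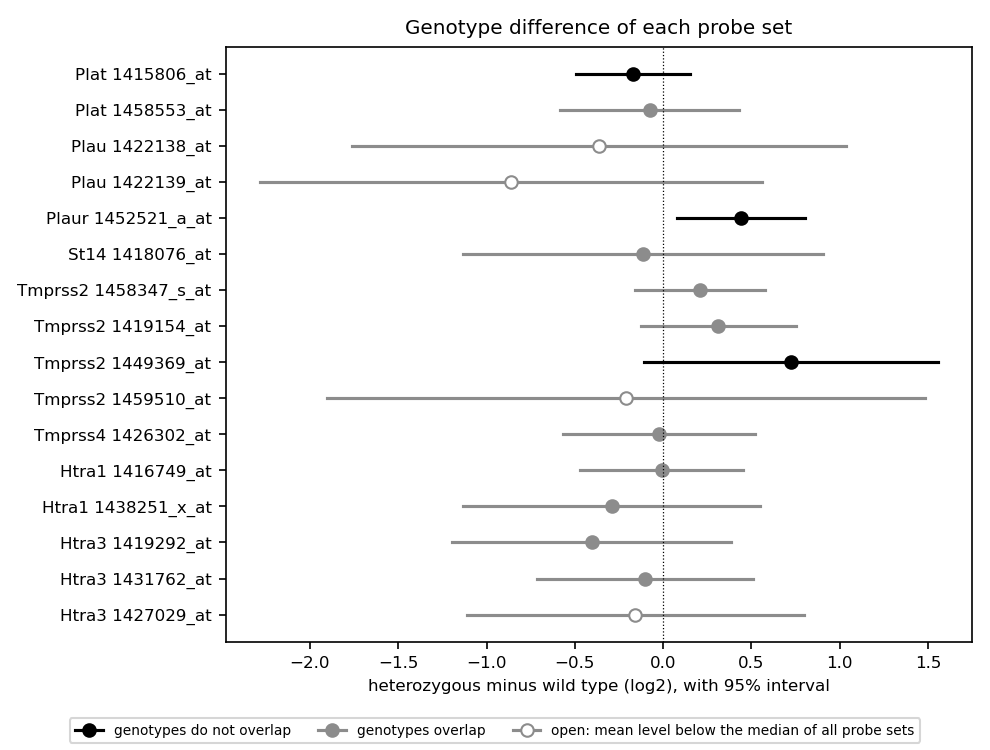
Difference between heterozygous and wild-type oviducts (log2) for each of the 16 probe sets, with the unadjusted 95% interval from limma. Black marks the 3 probe sets without overlap between the genotypes and open symbols those dimmer than the median of all probe sets; the interval of Plaur, 0.08 to 0.80, is the one that does not include 0.

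St14, the gene of matriptase, varied over the arrays without following the genotype. Its level was 11.15, 10.30 and 10.62 in heterozygous replicates 1, 2 and 3, against 10.01, 11.11 and 11.30 in wild-type replicates 1, 2 and 3. Heterozygous replicate 1 and wild-type replicates 2 and 3 were high and the other 3 arrays were low, which is the split of the arrays by Actb ratio. The mean was 11.19 in the arrays of higher ratio and 10.31 in those of lower ratio, a difference of 0.88, whereas the genotype difference was -0.11 (standard error 0.41, 95% interval -1.13 to 0.90). Within the arrays of higher ratio the genotype difference was -0.05 and within those of lower ratio 0.46.

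Tmprss4, a membrane serine protease of epithelia that can activate the sodium channel, split the arrays in the same way. Its level was 8.83, 8.52 and 8.34 in heterozygous oviducts, against 8.25, 8.72 and 8.79 in wild-type oviducts. The same 3 arrays were high, with a mean of 8.78 in those of higher ratio and 8.37 in those of lower ratio, and the genotype difference was -0.02 (standard error 0.22). Its 95% interval ran from -0.57 to 0.52. Together with the dim Plau probe set 1422138_at, which averaged 6.31 in the arrays of higher ratio and 5.17 in those of lower ratio, this made 3 of 16 probe sets higher without overlap in the arrays of higher ratio, or 18.8%, against 11.3% of all probe sets. None was lower without overlap there, against 9.69% of all probe sets.

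Both St14 and Tmprss4 belong to epithelial cells. Secretory epithelial markers summed to 65372 to 67526 in the arrays of higher ratio and to 64214 to 67800 in those of lower ratio. Ciliated cell markers summed to 22297 to 24519 in the arrays of higher ratio and to 18768 to 23240 in those of lower ratio. Higher without overlap in the arrays of higher ratio were 2 of 7 secretory and 3 of 7 ciliated cell markers, against 14% of all genes, and lower without overlap was 1 of 7 in each list, against 6.24% of all genes. The part of RNA quality and of epithelial cells in the St14 and Tmprss4 levels was not tested.

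**Figure D3:**
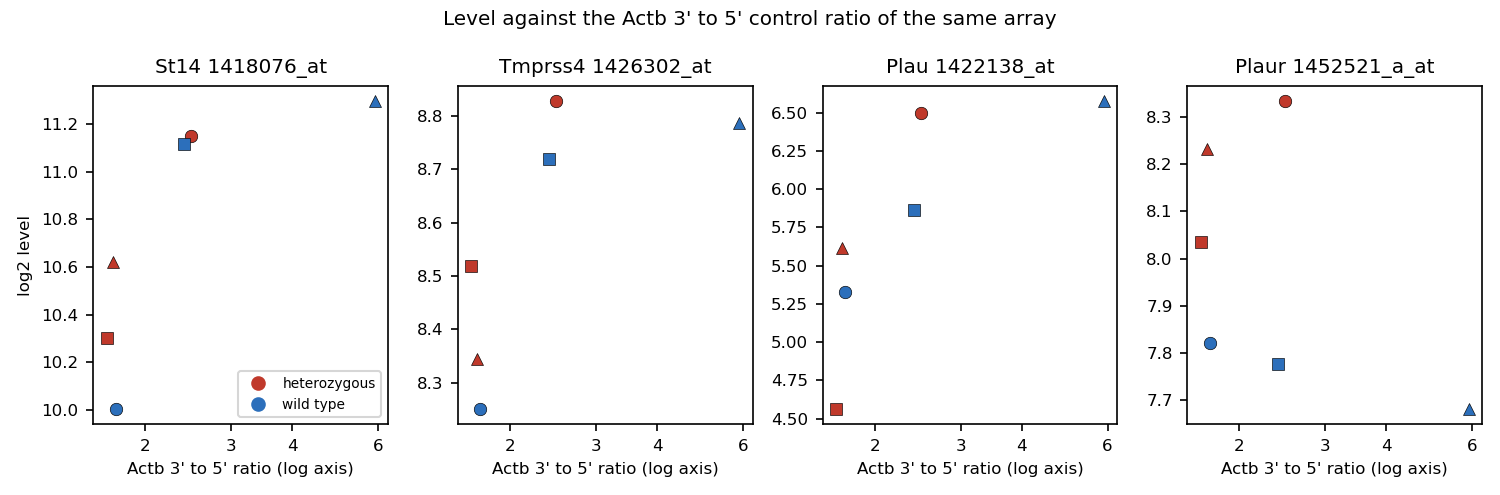
Log2 level of 4 probe sets against the Actb 3' to 5' ratio of the same array (log axis), heterozygous arrays in red and wild-type arrays in blue, with symbols for replicates as in the plot by array. St14, Tmprss4 and Plau 1422138_at are higher in each of the 3 arrays with a ratio of 2.40 to 5.90 than in each of the 3 with 1.67 to 1.74, while Plaur is apart by genotype at both ends of the ratio.

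Htra1 encodes a secreted protease that cuts matrix proteins. Its brighter probe set, 1416749_at, was 11.19, 11.24 and 11.08 in heterozygous oviducts, against 11.20, 10.88 and 11.44 in wild-type oviducts. The lowest and the highest value were both wild type, so the heterozygous range lay inside the wild-type range. The difference was -0.01 (standard error 0.19), with a 95% interval from -0.47 to 0.45. At 1438251_x_at, whose suffix marks probes that may bind other transcripts, the level was 10.75, 10.41 and 9.83 in heterozygous oviducts, against 10.57, 10.18 and 11.11 in wild-type oviducts. That difference was -0.29 (standard error 0.34), again with overlap. It was -0.51 without wild-type replicate 2, -0.50 without heterozygous replicate 1, -0.040 without heterozygous replicate 3 and -0.046 without wild-type replicate 3. Array weights gave -0.0064 and the Actb ratio as a covariate gave -0.0086.

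Htra3, a related secreted protease known in the mouse from the placenta and decidua, was read by 3 probe sets. At the brightest, 1419292_at, the level was 9.99, 10.58 and 9.96 in heterozygous oviducts, against 10.09, 10.55 and 11.11 in wild-type oviducts. Wild-type replicate 3 was the highest array, as it was at both Htra1 probe sets, and the genotypes overlapped. The difference of -0.40 (standard error 0.32, 95% interval -1.19 to 0.39) did not pass (adjusted p = 0.933 with limma). Leaving out 1 array gave -0.65 (without wild-type replicate 1) to -0.14 (without wild-type replicate 3). The other probe sets differed by -0.10 (1431762_at, standard error 0.25) and -0.16 (1427029_at, standard error 0.39), and the genotypes overlapped at both. At 1431762_at the array ranges were 8.13 to 8.37 in heterozygous and 7.93 to 8.77 in wild-type oviducts. At 1427029_at they were 5.83 to 7.27 in heterozygous and 6.44 to 6.66 in wild-type oviducts.

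Other genes of these systems were taken from 4 lists of textbook members, 50 names in all, of which 43 had a probe set; of the rest, Tmprss14 is an older name of St14. Each gene was read at its brightest probe set. With limma over all genes, 0 of the 43 passed, against 0.0165% of all genes, and 5 had an unadjusted p under 0.05, against 6.44% of all genes. The genotypes did not overlap at 5 of the 43, or 11.6%, against 11.8% of all genes. Of the 43, 18 were higher and 25 lower in heterozygous oviducts, where 45% of all genes were higher, with a median difference of -0.05, against -0.03 over all genes. The pathway genes named next are the 3 of smallest p in each list.

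Of 15 measured genes of the plasminogen system 6 were higher and 9 lower, with a median difference of -0.05. Plgrkt, a membrane receptor that binds plasminogen, was 10.11, 10.20 and 10.16 in heterozygous oviducts, against 10.06, 9.81 and 9.41 in wild-type oviducts. The genotypes did not overlap, with a difference of 0.40 (standard error 0.19, adjusted p = 0.817 with limma). Leaving out wild-type replicate 3 gave 0.22, and the Actb ratio as a covariate gave 0.20. Itgb1, the integrin subunit with which the urokinase receptor can associate, was 11.11, 11.60 and 11.03 in heterozygous oviducts, against 11.05, 10.51 and 9.39 in wild-type oviducts. Wild-type replicate 3 was again the lowest, and the difference was 0.93 (standard error 0.44) with all arrays and 0.46 without that array. The other Itgb1 probe sets, some of them dim, were higher by 0.23 to 1.41, all with overlap. Itgam, an integrin subunit of leukocytes, was dim, with a difference of 1.36 (standard error 0.67) and overlap. Leaving out wild-type replicate 2 gave 0.63 for Itgam, and leaving out wild-type replicate 1 gave 2.03.

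Of 15 measured membrane serine proteases 6 were higher and 9 lower, with a median of -0.14, and 4 lay above the median level. Tmprss13 was 8.21, 7.86 and 8.40 in heterozygous oviducts, against 8.68, 9.09 and 9.04 in wild-type oviducts. All heterozygous arrays lay below all wild-type arrays, and the difference of -0.78 (standard error 0.20) did not pass over all genes (limma p = 0.00726, adjusted p = 0.542, exact permutation p = 0.1). It ranged from -0.91 to -0.64 when 1 array was left out. Tmprss5, an enzyme known from the nervous system, was 5.52, 4.22 and 4.16 in heterozygous oviducts, against 2.60, 2.71 and 3.41 in wild-type oviducts. The genotypes did not overlap, but the difference of 1.73 (standard error 0.43, adjusted p = 0.542 with limma) was that of a dim probe set and stood at 0.82 with log2 of the intensity plus 16. Tmprss11e, a protease of squamous epithelia, was dimmer still, at 2.14 on average in heterozygous and 3.95 in wild-type oviducts, with overlap.

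Among 11 measured partners of matriptase (inhibitors, adhesion proteins, sodium channel subunits and the hepatocyte growth factor axis) 4 were higher and 7 lower, with a median of -0.05. Met, the receptor of hepatocyte growth factor, was 10.05, 9.94 and 10.28 in heterozygous oviducts, against 9.89, 9.49 and 9.30 in wild-type oviducts. The genotypes did not overlap, with a difference of 0.53 (standard error 0.19, adjusted p = 0.736 with limma). This difference ranged from 0.40 to 0.70 when 1 array was left out and was 0.37 with the Actb ratio as a covariate. The other Met probe set was higher by 1.17 (standard error 0.84), with overlap. Its lowest array was wild-type replicate 3, at 4.51. Scnn1b, a sodium channel subunit, differed by -0.34 (standard error 0.17) and Hgf, the growth factor itself, by 0.37 (standard error 0.47), both with overlap. The Hgf difference ranged from 0.10 to 0.88 when 1 array was left out, and was -0.059 with the Actb ratio as a covariate. The other Hgf probe sets, also dim, were higher by 0.80 (standard error 0.47) and 0.57 (standard error 0.52), with overlap. Of the relatives of Htra1, Htra4 averaged 6.54 in heterozygous and 5.27 in wild-type oviducts without overlap, a difference of 1.27 (standard error 0.38, adjusted p = 0.640 with limma) at a dim level, and of 0.84 without wild-type replicate 2. Htra2, the mitochondrial member, differed by 0.06 (standard error 0.18). Its other probe set went the other way, at -0.19 (standard error 0.28), and the genotypes overlapped at both.

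**Figure D4:**
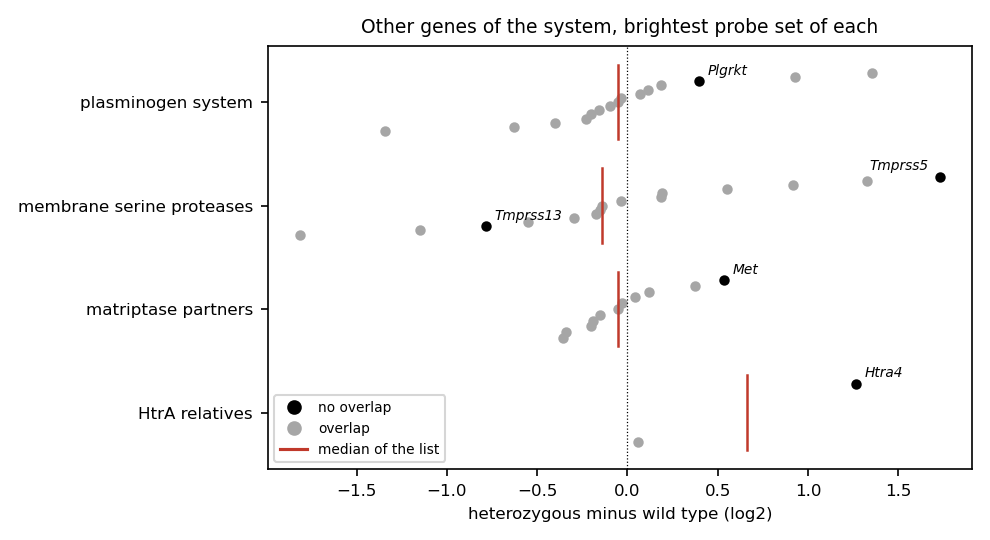
Difference between heterozygous and wild-type oviducts (log2) of the 43 other genes, each at its brightest probe set, by list, with the median of each list as a red line. The 5 genes in black have no overlap between the genotypes, and the medians of the 3 longer lists lie between -0.14 and -0.05.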

How the data were processed

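The values the authors deposited are linear intensities, 1 for each probe set on each array, from biotin-labelled cRNA on 1-colour arrays, per the labels' protocols. The software behind them is not given in the sources. The trimmed mean intensity (2% off each end) was 500.002 in all 6 arrays, so these values were already scaled. Here 64 control probe sets were left out, intensities under 1 were set to 1, and log2 values were quantile normalized. The genotype term was tested two-sided with limma 3.58.1 in R 4.3.3 (lmFit, eBayes) over 45037 probe sets, and over 18193 genes at the brightest probe set of each, with Benjamini-Hochberg adjustment. Errors of differences are moderated standard errors. The exact two-sided permutation test had 20 assignments. Precision is limited by the number of arrays. The script was tested on simulated data. Members, lists, tests and the rule for naming genes (all members, Wt1, and the 3 of smallest p per list) were chosen with earlier results of these data known. Alternatives were other scaling, a filter on dim probe sets, log2 of the intensity plus 16, other variance models and the replicate number as a block. Further ones were the Actb ratio as covariate or block, probe sets of suffix _x_at or _s_at left out, and each array left out. The files name no build, and promoters are RefSeq's.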

Additional observations from a re-analysis of the deposited data

How the results depend on the processing

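None of the 16 probe sets and none of the 43 other genes passed the threshold under any alternative run, and the smallest adjusted p of a member probe set over them was 0.333. Over all probe sets 3 passed; the count was 1 with log2 of the intensity plus 16, 14 with array weights, 0 with the replicate block, 0 with the Actb 3' to 5' ratio as a covariate and 0 with its classes as a block, and 0 to 1 when 1 array was left out. Over all genes 3 passed; the count was 1 after filtering dim probe sets, 1 under the trended robust variance model, 7 with array weights, 0 with the replicate block, 0 with the Actb covariate, 0 with its classes and 0 when any array was left out. Same-numbered arrays of the 2 genotypes deviated from their group means with correlations of -0.43, 0.07 and -0.25. No array correlated best with its own number. With 3 arrays per group this check cannot decide whether same-numbered arrays were handled together. Under the replicate block the Plaur difference stayed at 0.44 with adjusted p = 0.996. Of 266 recomputed member differences 227 kept their sign. Plaur, the bright Plat probe set 1415806_at, the 3 brighter Tmprss2 probe sets and Plau 1422139_at kept it under every alternative run. Wt1 kept its sign as well. Of the pathway genes named, chosen for their small p, Hgf and Htra2 turned sign under some alternatives and the others under none. With the deposited scaling Tmprss4 was 0.0022, and with array weights Htra1 1416749_at was 0.19. With the Actb covariate the values were 0.17 for Plau 1422138_at, 0.29 for St14, 0.16 for Tmprss4, 0.10 for Htra1 1416749_at, 0.10 for Htra3 1431762_at and -0.059 for Hgf. With the classes as a block they were 0.018 for Plau 1422138_at, 0.20 for St14, 0.028 for Tmprss2 1459510_at and 0.13 for Tmprss4. Within the arrays of higher ratio they were 0.28 for Plau 1422138_at, 0.0030 for Tmprss2 1459510_at, 0.074 for Tmprss4, 0.025 for Htra1 1416749_at and 0.11 for Htra1 1438251_x_at. Within those of lower ratio they were 0.20 for Plat 1458553_at, 0.46 for St14, 0.053 for Tmprss2 1459510_at, 0.18 for Tmprss4, 0.18 for Htra3 1419292_at, 0.11 for Htra3 1427029_at and 0.43 for Htra3 1431762_at. Leaving out 1 array gave -0.20 to 0.086 for Plat 1458553_at, -0.83 to 0.13 for Plau 1422138_at, -0.51 to 0.13 for St14, -0.70 to 0.53 for Tmprss2 1459510_at, -0.19 to 0.087 for Tmprss4, -0.16 to 0.13 for Htra1 1416749_at, -0.58 to 0.14 for Htra3 1427029_at, -0.33 to 0.091 for Htra3 1431762_at and -0.080 to 0.16 for Htra2. The mean over its probe sets put Htra2 at -0.065. The cause of these turns was not tested. Values within a class of ratio rest on 3 arrays and have no test.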
